A study of Arabidopsis thaliana with 8 samples.

Results

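In Arabidopsis thaliana roots, 61 genes rose under iron deficiency by at least 0.8 on the log2 scale, which is 1.74-fold, in wild type and again in the uri mutant. They were chosen from the probe sets that the array annotation assigns to exactly 1 gene, 21180 probe sets for 21019 genes. A gene was kept when the mean of the −Fe arrays exceeded the mean of the +Fe arrays by 0.8 or more within each genotype. In wild type 283 probe sets rose by that much (1.34% of the 21180) and in uri 997 (4.71%). The 61 are 21.6% of the wild-type risers and 6.12% of the uri risers. The other 222 wild-type risers stayed under 0.8 in uri, and 936 uri risers stayed under 0.8 in wild type. Both iron responses chose the genes, so they are described here without a test. Comparisons of uri with wild type at one iron supply are other contrasts and were tested, but they use the same arrays and group means as the rule. Where the +Fe levels are alike, the −Fe difference is nearly the difference of the rises, as for S8H (−4.43 and −4.39) and bHLH39 (−3.81 and −3.57), so counts of such calls over the 61 are given as a description.

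The study measured RNA from roots with 8 single-colour Affymetrix arrays. Wild type and uri plants grew for 14 days on B5 medium and were then moved for 3 days to agar with 50 µM Fe(III)-EDTA (+Fe) or to agar with no added iron and 300 µM of the iron chelator ferrozine (−Fe). Each genotype at each iron supply had 2 biological replicates, 1 array apiece, which makes 4 groups and is the main limit on precision. The labels name no uri allele, no second mutant line and no plant age beyond these days, and they do not say how many plants made up a replicate. All values below are log2 of the authors' probe-set intensity unless a sentence says otherwise, and they are not compared between genes.

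Plants take up iron from soil through reduction and import at the root surface, and iron shortage switches this system on. In Arabidopsis the transcription factor FIT acts together with subgroup Ib bHLH proteins, among them bHLH39 and bHLH101, to turn on the importer IRT1 and genes that make and release iron-mobilising coumarins. URI is a subgroup IVb bHLH factor that works with subgroup IVc partners upstream of the subgroup Ib genes. Vacuolar transporters such as MTP3 and FPN2 take up other metals that enter roots along with iron.

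URI (AT3G19860), the mutated gene, read 8.73 and 8.78 in wild type +Fe and 7.84 and 7.64 in uri +Fe. It read 8.64 and 8.60 in wild type −Fe with 8.52 and 8.62 for uri −Fe. It was lower in uri under +Fe by a log2 difference of −1.02 ± 0.118 (moderated SE, limma, adjusted p = 0.000752), but not under −Fe (−0.05 ± 0.118, limma adjusted p = 0.804). For the arrays labelled uri −Fe this probe set thus gives no check of genotype. Array medians lay between 119 and 128 linear units, and replicate arrays correlated across probe sets at 0.994 to 0.998. The titles number the −Fe and the +Fe arrays in separate runs whose meaning is not given, so iron supply and that numbering cannot be told apart, whereas each genotype comparison lies within 1 run. All 9 root markers measured were above the lower quartile of the arrays, as were all 10 nuclear photosynthesis genes taken as shoot markers. The summed linear intensity of the shoot markers was 2672 to 2680 in wild type −Fe and 6257 to 6781 in uri −Fe, against 4130 to 4506 in wild type +Fe and 3742 to 3848 in uri +Fe. Under −Fe all 10 shoot markers were higher in uri (limma). Root marker sums lay between 16310 and 18644 in all groups, a linear sum in which bright probe sets weigh most. Of the 9 root markers, 3 were lower in uri under −Fe, among them CASP1 (−0.66, limma adjusted p = 0.00125), 1 was higher and 5 were not called. Over all probe sets 12.2% were called higher and 14.4% lower in uri under −Fe. The part of the shoot and root markers in the −Fe comparison was not tested, and in whole roots a change in the number of cells of a type and a change in RNA per cell cannot be told apart.

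The largest wild-type rises among the 61 were those of CYP82C4, a coumarin gene, and IRT1, the iron importer, followed by GSTL1, bHLH39 and S8H, and each of these 5 rose less in uri. Rises ranged from 0.81 to 6.92 in wild type (median 1.20) and from 0.80 to 4.48 in uri (median 1.25). All 61 had both −Fe arrays above both +Fe arrays in each genotype, which the rule makes likely and which 21.8% of all probe sets showed in wild type and 29.1% in uri. The share of the log2 rise kept in uri, that is the uri rise as a percent of the wild-type rise, had a median of 86.1%, quartiles of 68.2% and 119.5%, and a range from 16% to 293%. It lay under 50% in 11 genes, from 50% to under 100% in 25, from 100% to under 150% in 16 and at 150% or more in 9. On the linear scale, where large rises weigh more, the median share was 76.9%.

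**Figure D1:**
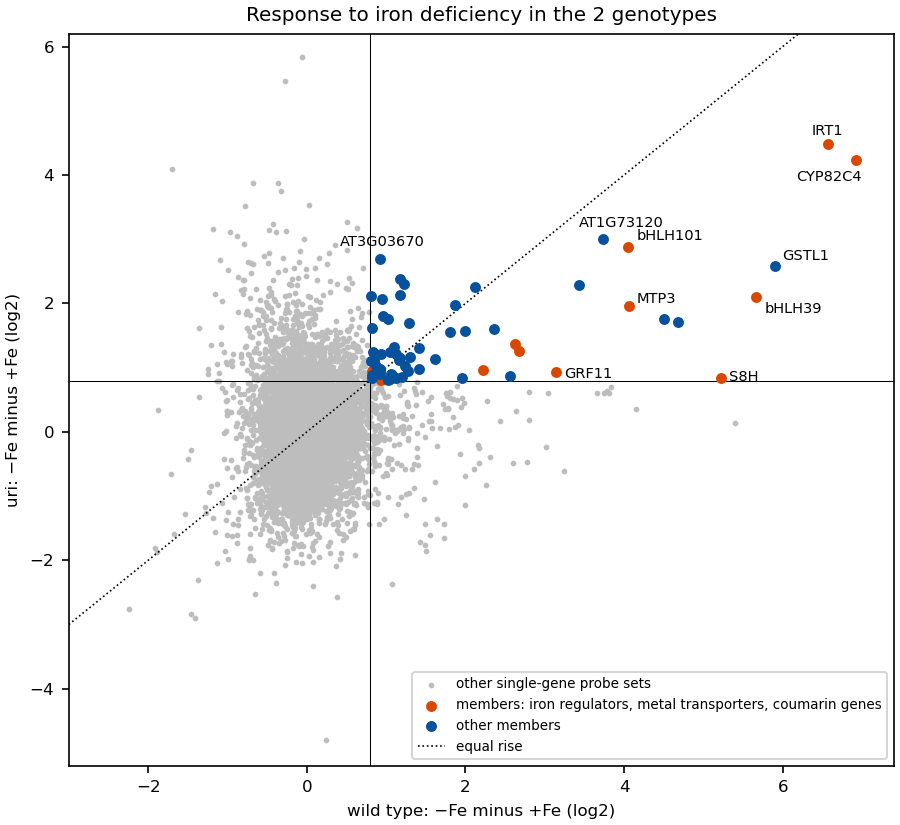
Log2 rise under −Fe in wild type (horizontal axis) against uri (vertical axis), each the difference of 2-array means, for the 61 genes (orange for iron regulators, metal transporters and coumarin genes, blue for the others) and the remaining single-gene probe sets (grey). Solid lines mark the 0.8 threshold and the dotted line equal rises. Of the 13 genes with a mean rise of 2 or more, 12 lie below the dotted line, and the smaller rises scatter on both sides.

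The 13 genes whose rise averaged 2 or more over both genotypes kept a median of 48.1% (16% to 106%), and 12 of them kept less than the wild-type rise. The 48 with a smaller mean rise kept a median of 100.5% (34.0% to 293%), with 24 of them under 100%. Both groups were split on the values that chose the genes, so this is a description. The rule also sets the lowest share a gene can show, which is 0.8 divided by its wild-type rise, 40% at a rise of 2 and nearly the whole rise close to the threshold, so genes with small wild-type rises could only enter with high shares. A description, too, is the difference of the rises between genotypes (limma's interaction term). It was called lower in uri for 17 of the 61 genes (27.9%) and higher for 9 (14.8%), where the background was 10.8% and 9.6%.

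Under −Fe, 25 of the 61 genes were lower in uri than in wild type and 12 were higher (limma, adjusted p under 0.05). These are 41.0% and 19.7% of the genes, where 14.4% of all probe sets tested, which were not selected for any rise, were called lower and 12.2% higher. The median difference over the 61 was −0.18, against 0.02 over all probe sets. Under +Fe 4 were lower and 4 higher, 6.56% each, with a background of 1.78% lower and 1.34% higher and a median difference of 0.05. Of the 25 lower genes, 24 were not called under +Fe, and of the 12 higher genes 7 were not. Not called does not mean no difference. Of these 7, AT5G22555, SAUR55 and AT5G41280 were higher under +Fe too and missed the cut narrowly (limma adjusted p 0.0590 to 0.0644), while the others of the 7 had an adjusted p of 0.199 or more. Of the 6 genes called at both supplies, 5 differed in 1 direction, and AT3G03670 was lower with iron and higher without. All 13 genes with a mean rise of 2 or more except NRT1.8 were called lower under −Fe, and none of the 13 was called under +Fe. By arrays alone, both uri arrays lay below both wild-type arrays under −Fe for 34 of the 61, and for 7328 of all 22746 probe sets (32.2%). They lay above for 20 of the 61 and for 7685 of the 22746 (33.8%). Under +Fe they lay below for 15 of the 61 and for 4438 of the 22746 (19.5%), and above for 16 of the 61 and for 4848 of the 22746 (21.3%).

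**Figure D2:**
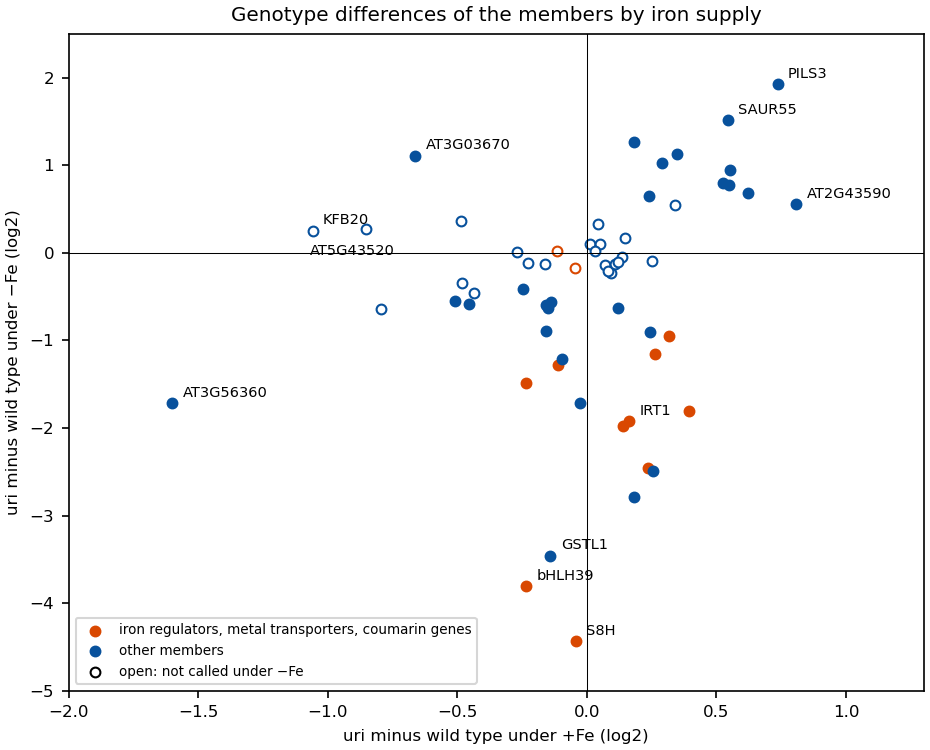
Log2 difference of uri minus wild type under +Fe (horizontal axis) and under −Fe (vertical axis) for the 61 genes, 1 point per gene, with filled points called under −Fe by limma and open points not called. Orange marks iron regulators, metal transporters and coumarin genes, and blue the others. The points spread from −4.43 to 1.93 under −Fe and from −1.60 to 0.81 under +Fe.

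Among the regulators, 4 genes kept a rise in uri, and all 4 were lower in uri than in wild type under −Fe. The median share kept was 42.0%. The subgroup Ib factor bHLH39 (AT3G56980) read 4.40 and 4.36 in wild type +Fe, 10.07 and 10.03 in wild type −Fe, 4.11 and 4.19 in uri +Fe, and 6.34 and 6.14 in uri −Fe. Both uri −Fe arrays stood above every +Fe array and far below the wild-type −Fe arrays. The measured rise was 50.8-fold in wild type and 4.27-fold in uri, which is 37.0% ± 2.2 (SE) of the log2 rise. Both +Fe means lay below the lower quartile of all probe sets, where background can hold the intensity up, so the folds may be too small and the SE does not cover this. Under −Fe the gene was lower in uri by −3.81 ± 0.117 (limma adjusted p = 9.89e-10), and under +Fe the difference of −0.23 did not pass (adjusted p = 0.356). Its relative bHLH101 (AT5G04150) read 5.01 and 5.41 in wild type +Fe, 9.25 and 9.28 in wild type −Fe, 5.16 and 5.04 in uri +Fe, and 8.25 and 7.73 in uri −Fe. The genotypes overlapped under +Fe and separated under −Fe, where uri was lower by −1.28 ± 0.173 (limma adjusted p = 1.53e-04). The share kept was 71.2% ± 5.3.

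IMA1 (AT1G47400), a small peptide that promotes the iron-deficiency response, read 4.39 and 4.05 in wild type +Fe, 6.81 and 6.97 in wild type −Fe, 4.29 and 4.67 in uri +Fe, and 5.72 and 5.76 in uri −Fe. Its measured share was 47.1% ± 6.3, again from +Fe means below the lower quartile, and it differed by −1.15 under −Fe (limma adjusted p = 1.26e-04). The annotation describes a similar gene, AT1G47395, and whether its transcripts reach this probe set is uncertain. GRF11 (AT1G34760), a 14-3-3 protein of the iron response, rose 8.82-fold in wild type, from 6.39 and 6.84 to 9.71 and 9.80. In uri it went from 7.05 and 6.97 to 8.10 and 7.79, a 1.91-fold rise. That is 29.8% ± 5.2 of the log2 rise, and the uri rise falls to 0.78, below the threshold, without uri −Fe replicate 1. Under −Fe GRF11 differed by −1.81 (limma adjusted p = 4.23e-06).

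Of 5 iron and metal transporters, 3 were lower in uri under −Fe and 2 did not pass the test. IRT1 (AT4G19690), the main root importer of ferrous iron, read 5.06 and 5.58 in wild type +Fe, 11.85 and 11.93 in wild type −Fe, 5.63 and 5.34 in uri +Fe, and 10.22 and 9.70 in uri −Fe. This was the largest rise among the 61 genes in uri, 22.3-fold, beside 94.9-fold in wild type. The genotypes overlapped with iron and stood apart without it, by −1.93 ± 0.193 (limma adjusted p = 1.47e-05). IRT1 kept 68.2% ± 3.6 of its log2 rise, while the uri −Fe mean was 26.3% of the wild-type −Fe mean on the linear scale.

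MTP3 (AT3G58810), which moves zinc into the vacuole, read 7.21 and 7.15 in wild type +Fe, 11.12 and 11.36 in wild type −Fe, 7.36 and 7.27 in uri +Fe, and 9.40 and 9.14 in uri −Fe. FPN2 (AT5G03570), a vacuolar transporter of nickel and cobalt, read 8.76 and 8.74, then 11.39 and 11.35 in wild type, and 8.59 and 8.44, then 9.95 and 9.83 in uri. Both sat between the +Fe level and the wild-type −Fe level in uri −Fe roots. MTP3 kept 48.1% ± 3.6 and differed by −1.97 under −Fe (limma adjusted p = 4.62e-07). FPN2 kept 52.5% ± 5.0 and differed by −1.48 (limma adjusted p = 1.82e-06).

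ZIF1 (AT5G13740), a vacuolar nicotianamine transporter, and IREG3 (AT5G26820), an organellar member of the ferroportin family, had smaller rises. ZIF1 read 9.78 and 9.95 in wild type +Fe, 10.70 and 10.67 in wild type −Fe, 9.77 and 9.73 in uri +Fe, and 10.62 and 10.79 in uri −Fe. The genotypes overlapped under −Fe, with a difference of 0.02 and a 95% interval from −0.24 to 0.28. IREG3 read 8.32 and 7.98, then 9.06 and 9.12 in wild type, and 8.19 and 8.02, then 8.96 and 8.87 in uri. Its difference of −0.18 under −Fe did not pass (limma adjusted p = 0.389, interval −0.47 to 0.12). Shares kept were 117% ± 22 for ZIF1 and 86.0% ± 18.9 for IREG3. ZIF1 falls under the threshold without wild-type +Fe replicate 1, at 0.73, and IREG3 without any one of 3 arrays, at 0.72 to 0.77.

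Coumarin genes kept a rise at 3 steps, and all 3 were lower in uri under −Fe. S8H (AT3G12900), the scopoletin 8-hydroxylase that makes fraxetin, read 5.30 and 5.16 in wild type +Fe, 10.46 and 10.45 in wild type −Fe, 4.99 and 5.39 in uri +Fe, and 6.01 and 6.03 in uri −Fe. It kept the lowest share of all 61 genes, 16% ± 2.7, and reached 4.63% of the wild-type linear level without iron. The difference of −4.43 ± 0.138 under −Fe (limma adjusted p = 9.89e-10) was the largest of the 61 in either direction. Without uri +Fe replicate 1 the S8H rise in uri is 0.64, below the threshold.

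CYP82C4 (AT4G31940), the cytochrome P450 that turns fraxetin into sideretin, read 3.67 and 3.20 in wild type +Fe, 10.25 and 10.46 in wild type −Fe, 3.67 and 3.66 in uri +Fe, and 8.17 and 7.63 in uri −Fe. Both +Fe means lay below the lower quartile here too, so the measured rises of 121-fold and 18.8-fold and the share of 61.1% ± 3.1 carry the same limit. The −Fe difference, which does not use the +Fe arrays' level, was −2.46 ± 0.186 (limma adjusted p = 1.36e-06). ABCG37 (AT3G53480), a plasma membrane exporter of phenolic compounds including coumarins, went from 9.31 and 9.25 to 11.56 and 11.45 in wild type and from 9.62 and 9.56 to 10.63 and 10.48 in uri. It started higher and ended lower in uri on every array, with 43.1% ± 5.7 of the rise kept and a −Fe difference of −0.95 (limma adjusted p = 6.57e-05). The +Fe difference of 0.32 did not pass (adjusted p = 0.192).

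**Figure D3:**
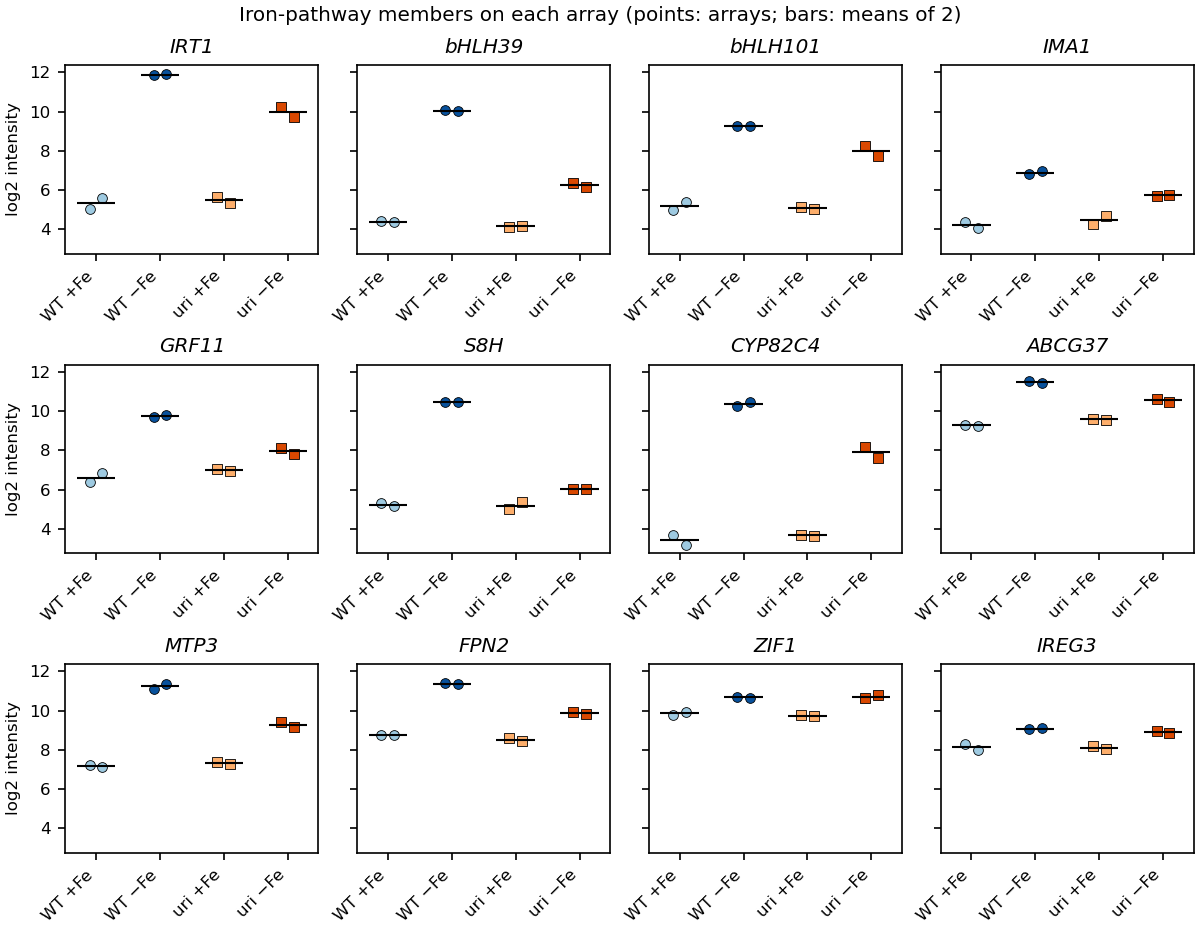
Log2 intensity on every array for the 12 iron regulators, metal transporters and coumarin genes, 1 panel per gene, with the groups along the horizontal axis, 1 point per array and a bar at each group mean. For bHLH39, S8H and GRF11 the uri −Fe points lie clearly nearer to the uri +Fe points than to the wild-type −Fe points. For IMA1, ABCG37, MTP3 and FPN2 the uri −Fe points lie about midway, and for ZIF1 they overlap the wild-type −Fe points.

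The 12 genes of these 3 groups kept a median of 50.3% (16% to 117%). Under −Fe 10 were lower in uri and none was higher, and under +Fe none was called in either direction. The remaining 49 genes kept a median of 98.5% (34.0% to 293%), with 15 lower, 12 higher and 22 not called under −Fe. The groups of gene functions were assigned after values had been seen. Of the 12, only ZIF1 and IREG3 had wild-type rises under 2 (0.82 and 0.94), and they kept the highest shares, 117% and 86.0%. The rest, with rises of 2.23 to 6.92, kept 16% to 71.2%. Outside the 3 groups, genes with wild-type rises of 2 or more kept 34.0% (COBL6) to 106% (NRT1.8). The medians of 50.3% and 98.5% thus compare genes with rises of unlike size, for which the rule sets unlike lowest shares.

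Among 6 redox proteins the shares kept ran from 43.8% to 293%, and 1 was lower and 3 were higher in uri under −Fe. GSTL1 (AT5G02780), a lambda-class glutathione transferase, read 5.87 and 5.73 in wild type +Fe, 11.72 and 11.67 in wild type −Fe, 5.97 and 5.34 in uri +Fe, and 8.42 and 8.06 in uri −Fe. It rose 59.6-fold in wild type and 5.99-fold in uri, and under −Fe it differed by −3.46 ± 0.184 (limma adjusted p = 6.46e-08). The other members rose less in wild type and, in 3 cases, more in uri. The peroxidase AT3G03670 kept the highest share of all, 293% ± 39. It went from 5.64 and 5.77 to 6.62 and 6.63 in wild type and from 5.11 and 4.97 to 7.78 and 7.69 in uri. It was thus lower in uri with iron (−0.66, limma adjusted p = 0.00902) and higher without it (1.11, adjusted p = 2.10e-05). Leaving out replicate 2 of wild type +Fe or of uri +Fe loses the +Fe call, at −0.60 and −0.59. The +Fe arrays alone lose it too (limma adjusted p = 0.0514).

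GulLO2 (AT2G46750), an enzyme of the gulonolactone oxidase family, read 9.10 and 8.91 in wild type +Fe, 10.26 and 10.19 in wild type −Fe, 9.07 and 9.30 in uri +Fe, and 11.52 and 11.46 in uri −Fe. It overlapped between genotypes with iron and was higher in uri without it by 1.26 (limma adjusted p = 1.40e-05), at a share of 188% ± 22. A second peroxidase, AT5G39580, was also higher by 1.02 (adjusted p = 1.04e-04). The NADPH oxidase AT4G25090 and the germin-like protein GLP9 did not differ beyond the test under −Fe, with −0.10 and −0.46.

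Kelch and phloem protein 2 families contributed 5 genes. AT3G07720, a kelch repeat protein, rose 22.7-fold in wild type, from 8.88 and 9.04 to 13.41 and 13.52, and 3.38-fold in uri, from 9.22 and 9.20 to 11.16 and 10.78. The genotypes did not overlap without iron, with a difference of −2.49 (limma adjusted p = 8.87e-08), and 39.0% ± 3.3 of the rise was kept. The phloem lectins PP2-A6 (AT5G45080) and PP2-B6 (AT2G02310) kept 67.9% ± 6.0 and 78.7% ± 8.9 and were lower by −0.64 (adjusted p = 0.00145) and −0.56 (adjusted p = 0.00913). Leaving out replicate 2 of either −Fe group loses the PP2-B6 call, at −0.45 (adjusted p = 0.114) for wild type and −0.47 (adjusted p = 0.0919) for uri. KFB01 (AT1G15670) and KFB20 (AT1G80440) are F-box kelch proteins that target phenylalanine ammonia-lyase for breakdown. KFB20 read 10.66 and 10.69 in wild type +Fe, 11.50 and 11.45 in wild type −Fe, 9.88 and 9.35 in uri +Fe, and 11.91 and 11.56 in uri −Fe. Its high share of 263% ± 59 came with a lower +Fe level in uri (−1.06, limma adjusted p = 0.00558), while the −Fe difference of 0.25 did not pass (adjusted p = 0.316). That +Fe call and the membership both rest on wild-type +Fe replicate 1, for without this array the adjusted p was 0.0586 and the wild-type rise 0.79. Without wild-type −Fe replicate 1 that rise is 0.78. KFB01 differed by 0.01 under −Fe, with an interval from −0.26 to 0.27.

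Other transporters and channels, 4 in all, each kept their whole rise or more, from 106% to 201%. Under −Fe 3 were higher in uri and none was lower, and the same 3 were higher under +Fe as well. PILS3 (AT1G76520), an auxin carrier of the PIN-LIKES family, read 6.97 and 7.11 in wild type +Fe, 8.23 and 8.21 in wild type −Fe, 7.72 and 7.83 in uri +Fe, and 10.16 and 10.14 in uri −Fe. Every uri array lay above the wild-type arrays of the same iron supply, by 0.74 with iron (limma adjusted p = 0.00475, lost at 0.0586 without wild-type +Fe replicate 1) and by 1.93 without (adjusted p = 1.66e-07). SKOR (AT3G02850), the channel that releases potassium into the xylem, was higher by 0.55 with iron (adjusted p = 0.0385) and by 0.77 without (adjusted p = 6.87e-04). GLR1.1 (AT3G04110), a glutamate-receptor-like channel, was higher by 0.62 (adjusted p = 0.0366) and 0.68 (adjusted p = 0.00336). The +Fe calls of SKOR and GLR1.1 were lost when single arrays were left out, at differences of 0.46 to 0.64 and 0.52 to 0.72. The +Fe arrays alone lost both as well (limma adjusted p = 0.1215 and 0.0770). That of SKOR was also lost with the replicate block (adjusted p = 0.0583), and that of GLR1.1 with a pseudocount of 16 (adjusted p = 0.0524). NRT1.8 (AT4G21680), which retrieves nitrate from the xylem, read 6.67 and 6.47, then 8.74 and 8.64 in wild type, and 6.01 and 6.16, then 8.37 and 8.32 in uri. It was the one gene with a mean rise of 2 or more that kept its whole rise, 106% ± 8, and its −Fe difference of −0.35 did not pass (adjusted p = 0.0536).

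Receptor-like kinases and cysteine-rich secreted proteins made up 8 genes, with rises of 0.81 to 1.96 in wild type and 0.84 to 1.25 in uri. The leucine-rich repeat kinase AT5G59680 kept the least, 43.1% ± 6.7. It read 7.71 and 7.48 in wild type +Fe, 9.55 and 9.55 in wild type −Fe, 7.47 and 7.53 in uri +Fe, and 8.40 and 8.29 in uri −Fe, a −Fe difference of −1.21 (limma adjusted p = 1.43e-05). Its uri rise drops to 0.78 without uri −Fe replicate 1. CRK29 (AT4G21410), a cysteine-rich receptor-like kinase, was also lower (−0.41, adjusted p = 0.0381), a call lost when wild-type −Fe replicate 1 is left out (−0.27 at an adjusted p of 0.335) or either uri −Fe array. Higher in uri were AT5G41280, annotated as cysteine-rich repeat secretory protein 57 (0.80, adjusted p = 7.50e-04), and the kinase AT1G51830 (0.65, adjusted p = 0.00413). The AT1G51830 call is lost without wild-type −Fe replicate 2, at 0.57. With iron AT5G41280 was higher by 0.52, which did not pass (limma adjusted p = 0.0590). The kinases AT1G51830, AT1G51860 and AT1G51890 are near neighbours in the RefSeq annotation, with 2 genes between each pair in order, so cross-hybridisation between relatives is uncertain. AT1G51860 and AT1G51890 did not pass under −Fe, nor did the kinases AT1G07560 and AT2G28960.

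DC1 and CHP-rich zinc finger proteins, a plant family with cysteine- and histidine-rich domains, gave 4 genes. AT5G43520 went from 9.17 and 9.35 to 10.14 and 10.28 in wild type and from 8.58 and 8.24 to 10.55 and 10.42 in uri. As with KFB20, the larger uri rise of 219% ± 35 came with a lower +Fe level (−0.85, limma adjusted p = 0.00606) and no called difference without iron (0.27, adjusted p = 0.175). Without wild-type +Fe replicate 2 the +Fe call is lost (−0.76, adjusted p = 0.0531). AT2G42060 was lower under −Fe by −0.64 (adjusted p = 0.0200) and AT1G44050 by −0.58 (adjusted p = 0.0471). The first call is lost without any single −Fe array (differences from −0.56 to −0.71). The second is lost without uri −Fe replicate 2 (−0.40) or either wild-type −Fe array. Centring the arrays (adjusted p = 0.0695) or a pseudocount of 16 (adjusted p = 0.0583) loses the second as well. AT2G27660 differed by 0.02, with an interval from −0.42 to 0.46.

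Cell wall proteins, glycosidases and proteases counted 6. COBL6 (AT1G09790), of the COBRA-like family of cell surface proteins, read 5.24 and 4.96 in wild type +Fe, 7.71 and 7.63 in wild type −Fe, 4.95 and 5.20 in uri +Fe, and 5.91 and 5.99 in uri −Fe. It kept 34.0% ± 5.5 and differed by −1.72 under −Fe (limma adjusted p = 1.88e-06), and its uri rise drops to 0.75 without uri +Fe replicate 1. The glycosyl hydrolase AT3G47040 was lower by −0.59 (adjusted p = 0.00331) and the glucuronidase GUS1 (AT5G61250) by −0.56 (adjusted p = 0.00626, or 0.0583 without wild-type −Fe replicate 1). The chitinase AT2G43590 was higher in uri by 0.81 with iron (adjusted p = 0.00701) and by 0.56 without (adjusted p = 0.00855). These calls are lost without wild-type +Fe replicate 2 for the first (0.0587) and without any one of 3 of the 4 −Fe arrays for the second (0.0558 to 0.0985). The alpha-glucosidase AT1G24320 and the aspartyl protease AT3G51330 were not called.

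Of 5 genes of transcription, mRNA decay and stress signalling, 1 was called under −Fe. SAUR55 (AT5G50760), of the auxin-responsive SAUR family, went from 8.35 and 8.06 to 9.49 and 9.26 in wild type and from 8.88 and 8.62 to 10.92 and 10.85 in uri. It kept 183% ± 25 and was higher without iron by 1.51 (limma adjusted p = 8.87e-06). With iron both uri arrays also lay above both wild-type arrays, and the difference of 0.54 did not pass (adjusted p = 0.0644). ERF6, an ethylene response factor, CAF1a, a deadenylase subunit of the CCR4-NOT complex, BAP1, a restraint on defence and cell death, and HRA1, a regulator of the low-oxygen response, rose by 0.87 to 1.12 in wild type and 0.80 to 1.25 in uri. HRA1 had the widest replicate gap of the uri −Fe arrays, 8.67 against 7.70, and its uri rise is 0.54 without replicate 1.

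A last group holds 11 genes for which the files annotate no function, except that AT1G60750 is annotated as a pseudogene of the aldo/keto reductase family. Of these 11, 3 had wild-type rises of more than 10-fold. AT3G61930 read 5.94 and 6.83 in wild type +Fe, 11.05 and 11.07 in wild type −Fe, 6.85 and 6.28 in uri +Fe, and 8.52 and 8.03 in uri −Fe. It kept 36.4% ± 5.9, with a −Fe difference of −2.79 (limma adjusted p = 8.11e-06). AT1G73120 went from 6.14 and 5.96 to 9.71 and 9.86 in wild type and from 6.09 and 5.70 to 9.16 and 8.64 in uri, which is 80.4% ± 6.1. AT4G19370 went from 5.00 and 5.25 to 8.55 and 8.56 in wild type and from 5.54 and 5.19 to 7.74 and 7.57 in uri, which is 66.6% ± 5.0. All 3 overlapped between genotypes with iron and separated without it, AT1G73120 by −0.89 (adjusted p = 0.00241) and AT4G19370 by −0.90 (adjusted p = 5.06e-04).

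AT3G56360 differed from those by being lower in uri at both supplies. It read 10.10 and 10.16 in wild type +Fe, 11.56 and 11.54 in wild type −Fe, 8.56 and 8.50 in uri +Fe, and 9.95 and 9.72 in uri −Fe. Every uri array lay below every wild-type +Fe array, yet the rise was 91.8% ± 11.4 of that in wild type. The difference was −1.60 with iron (limma adjusted p = 4.27e-05) and −1.72 without (adjusted p = 6.35e-07). AT5G14730 (194.5% ± 34.2, 1.13 under −Fe, limma adjusted p = 4.00e-05) and AT5G22555 (131%, 0.95, adjusted p = 3.11e-04) were higher in uri without iron. With iron their differences of 0.35 (adjusted p = 0.199) and 0.55 (adjusted p = 0.0599) did not pass. AT1G52200 kept 189% ± 38 with a −Fe difference of 0.36 that did not pass (adjusted p = 0.143). The other members, AT2G25735, AT1G60750, AT2G41120 and AT4G36500, were not called under −Fe.

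**Figure D4:**
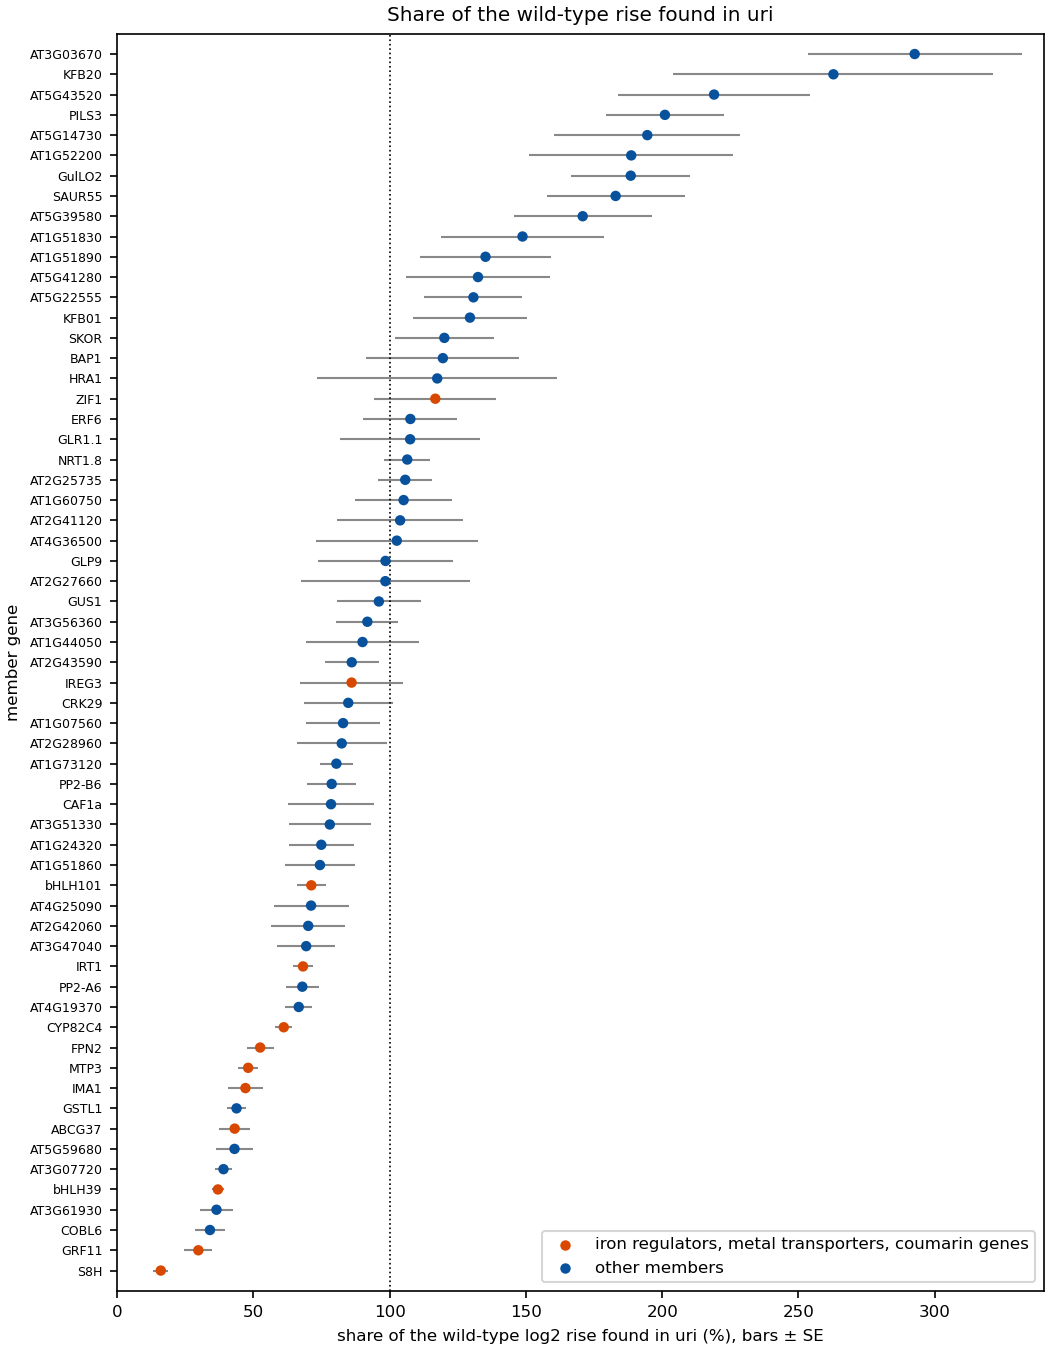
Share of the wild-type log2 rise kept in uri (horizontal axis, percent, bars ± 1 SE by the delta method) for the 61 genes, in order of that share. Orange points are iron regulators, metal transporters and coumarin genes, and the dotted line marks 100%. All 12 orange points except ZIF1 lie to its left, with S8H lowest at 16%.

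Seen from the gene lists, the genes that kept a rise were a minority of the listed genes that rose in wild type. The 13 lists cover iron genes and others, such as copper, zinc and jasmonate genes. In them, 116 of 135 genes had a single-gene probe set, 34 of these rose by 0.8 or more in wild type, and 10 did so in uri too. Over all single-gene probe sets, 21.6% of the wild-type risers kept a rise, so a minority is not particular to the listed genes. These counts use the responses that chose the genes and carry no test. Among 12 iron regulators measured, bHLH39, bHLH101 and IMA1 kept a rise, while the E3 ligase gene BTS and its relatives BTSL1 and BTSL2 rose by 1.00, 2.64 and 1.78 in wild type and by 0.34, 0.33 and 0.35 in uri. Of the 3 uptake genes that rose in wild type, IRT1 kept its rise, and IRT2 (2.43 and 0.17) and the proton pump gene AHA7 (1.25 and −1.29) did not reach 0.8.

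All 8 coumarin genes rose in wild type and 3 kept a rise. The transcription factor genes MYB72 (5.40 and 0.14) and MYB10 (3.79 and 0.64), the feruloyl-CoA hydroxylase F6'H1 (2.81 and 0.19), the glucosidase BGLU42 (3.24 and −0.60) and the coumarin synthase COSY (0.91 and −0.52) did not. All 8 were lower in uri under −Fe. In vacuolar storage, MTP3, FPN2 and ZIF1 kept a rise and HMA3 (3.04 and 0.60), MTP8 (3.81 and 0.61) and NRAMP4 (0.90 and 0.39) did not. No gene reached 0.8 in both genotypes among 12 iron distribution genes, 4 of which rose in wild type, or among 9 methionine salvage genes, of which 4 rose. The distribution genes were the nicotianamine synthases NAS1 (2.60 and −0.49) and NAS4 (1.68 and 0.06), the transporter OPT3 (3.75 and 0.60) and the reductase FRO3 (2.28 and 0.48). The lists of iron storage, copper, zinc, jasmonate, dark-induced, shoot and root marker genes held no gene that rose by 0.8 or more in both genotypes either. Short of it in 1 genotype were, for example, the superoxide dismutase gene CSD1 (0.84 and 0.60) and the jasmonate repressor gene JAZ1 (0.74 and 1.02). FIT, FRO2, bHLH38 and bHLH100 are not in the annotation used here.

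**Figure D5:**
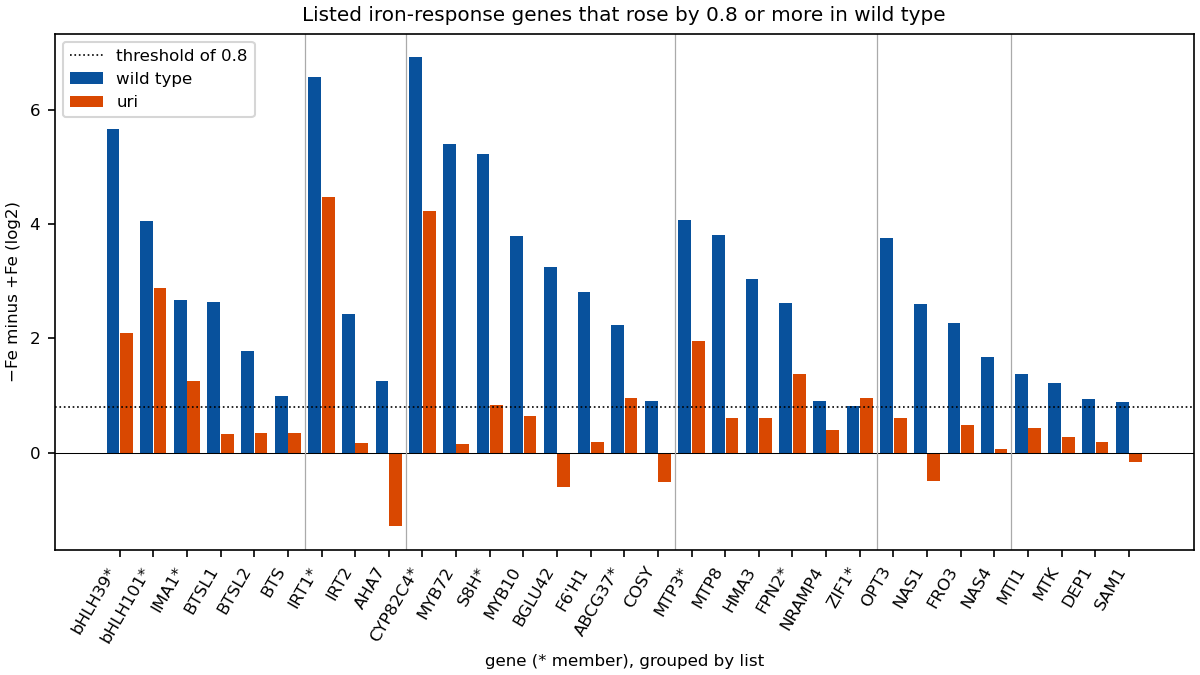
Log2 rise under −Fe in wild type (blue bars) and uri (orange bars) for the listed genes of iron regulation, uptake, coumarins, vacuolar storage, iron distribution and methionine salvage (left to right, separated by grey lines) that rose by 0.8 or more in wild type. Bars are differences of 2-array means. The 10 genes marked with an asterisk exceed the dotted line at 0.8 in uri too, and the others do not.

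At the threshold, the 4 genes just inside were CAF1a (1.02 in wild type and 0.80 in uri), IREG3 (0.94 and 0.80), KFB20 (0.81 and 2.12) and AT1G51890 (0.814 and 1.0998). Just outside lay AT2G29995 (1.01 and 0.796), UGT73D1 (0.79 and 0.95), SYP122 (0.82 and 0.79) and AT3G51540 (1.06 and 0.79). The moderated SE of a rise was 0.114 to 0.259, median 0.134, which is wider than the gap between these groups. Leaving out 1 array at a time, 38 of the 61 genes met the rule in each of the 8 cases and 23 missed it in at least 1. Under +Fe, CYP82C4, bHLH39, IMA1 and PP2-B6 lay below the lower quartile of all probe sets in both genotypes, and under −Fe no gene of the 61 did. The 61 genes lie on all 5 chromosomes, with 15, 8, 15, 9 and 14 on chromosomes 1 to 5.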

How the data were processed

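The authors deposited probe-set intensity values on a linear scale, made with RMA per the submitters' processing notes, whose version is not given in the sources used here. The deposited workbook held the same values and the annotation. Log2 was taken and 64 control probe sets were left out, which left 22746. All 8 arrays entered 1 fit with 4 group means in limma 3.58.1 (lmFit and eBayes, R 4.3.3), with 4 residual degrees of freedom and a prior of 8.32. Tests were two-sided and adjusted by Benjamini and Hochberg over the 22746, with calls at an adjusted p under 0.05. The fit was tested on simulated data. Errors are moderated SEs, and the share kept has a delta-method SE.

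The members, lists and tests were chosen with earlier results of these data known. Named genes were listed members, the 15 largest mean rises, the 8 lowest and 8 highest shares kept, the 5 largest genotype differences in each direction and iron supply, and 4 genes on each side of the threshold. Further members are named to account for all 61, after their values were seen. Symbols came from the files and from RefSeq (TAIR10.1). S8H, IMA1, MTP3 and FPN2 came from textbook lists. Alternatives covered scaling, filtering, moderation, a pseudocount, the rule's threshold, the replicate block and each array left out.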

Additional observations from a re-analysis of the deposited data

Results flagged for a closer look

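For 26 of the 61 genes the iron response itself differed between the genotypes by limma's interaction term (adjusted p under 0.05). The rise in uri was smaller for 17 (27.9%) and larger for 9 (14.8%). The background over all probe sets was 10.8% in the lower and 9.6% in the higher direction. The term is made of the responses that chose the genes. The rule favours neither genotype but leaves out pairs with a response under 0.8, and the p-values do not allow for that choice. The counts and the p-values below are therefore a description.

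Values are the uri rise minus the wild-type rise on the log2 scale. The rise in uri was smaller for the coumarin genes S8H (−4.39), CYP82C4 (−2.69) and ABCG37 (−1.27). It was smaller for the regulators and signals bHLH39 (−3.57), GRF11 (−2.21), IMA1 (−1.41) and bHLH101 (−1.17). Metal transporters followed with MTP3 (−2.11), IRT1 (−2.09) and FPN2 (−1.25). The remaining 7 were GSTL1 (−3.32), AT3G61930 (−2.97), AT3G07720 (−2.75), COBL6 (−1.69), AT4G19370 (−1.14), AT5G59680 (−1.11) and PP2-A6 (−0.76). Adjusted p-values of these 17 ran from 5.65e-08 for S8H to 0.00678 for PP2-A6.

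The rise was larger in uri for the peroxidases AT3G03670 (1.77) and AT5G39580 (0.73) and for GulLO2 (1.08), for KFB20 (1.31), PILS3 (1.19), AT5G43520 (1.13) and SAUR55 (0.97), and for AT1G52200 (0.85) and AT5G14730 (0.78), which have no annotated function. Their adjusted p-values ran from 1.49e-05 for AT3G03670 to 0.0239 for AT1G52200. Leaving out single arrays lost 3 of these calls. The adjusted p of AT5G39580 was 0.0710 without replicate 2 of wild type −Fe and 0.0562 without replicate 2 of wild type +Fe. AT5G14730 reached 0.0519 without wild-type −Fe replicate 1, and AT1G52200 reached 0.0558 to 0.0818 without any one of 6 arrays.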

How the results depend on the processing

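No called difference changed sign under any alternative run, while 71 of the 2867 alternative values of single genes did, all of differences that were not called. A rise of at least 1 in both genotypes left 31 genes and a rise of at least 0.6 gave 152. Centring the arrays gave 72 and a pseudocount of 16 gave 45, and leaving out 1 array gave 53 to 69. Under −Fe the 25 lower calls ranged from 21 to 27 and the 12 higher ones from 10 to 15. The +Fe counts, 4 in each direction, were less stable. Moderation with an intensity trend gave 7 lower and 7 higher, repeated quantile normalization gave 7 higher and the +Fe arrays alone gave 2 higher. Leaving out 1 array gave 2 to 9 lower and 1 to 4 higher, with 9 lower without uri +Fe replicate 1, 2 lower without wild-type +Fe replicate 2, 1 higher without either wild-type +Fe array and 2 higher without either wild-type −Fe array. The causes were not tested.

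Deviations of same-numbered replicates correlated between groups at −0.223 to 0.155. Between iron supplies the values were 0.139 in wild type and 0.155 in uri, and all pairs across genotypes were negative. Each group has too few arrays for these values to decide whether the numbers pair the samples. With the replicate block, 26 genes were lower and 13 higher under −Fe, 4 and 4 under +Fe, and 18 and 9 for the difference of responses. Under +Fe it lost SKOR (adjusted p = 0.0583) and gained SAUR55. Across the alternatives, 7 members lost a −Fe call (adjusted p 0.0536 to 0.335), 7 lost a +Fe call (0.0514 to 0.250) and 3 lost an interaction call (0.0519 to 0.0818), namely AT5G39580, AT1G52200 and AT5G14730. Rises of genes near the array background, such as CYP82C4 under +Fe, are limited by signal over background.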
